A study of Arabidopsis thaliana with 4 samples.

Results

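The genes described here are 10 WRKY transcription factor genes of Arabidopsis thaliana that are known from stress and immune responses: WRKY6, WRKY11, WRKY18, WRKY33, WRKY40, WRKY46, WRKY53, WRKY54, WRKY60 and WRKY70. They were picked by name and locus ID, with earlier results of these data known. They make up 10 of the 34133 loci in the deposited table and 10 of its 72 WRKY genes. RNA was sequenced from 10-day-old seedlings of the mutants prp31, zop1 and sta1 and of the wild type, all in the C24 accession, with 1 library per genotype. The labels name neither the alleles nor the number of seedlings behind a library, and name no treatment: plants grew on agar medium at 23 °C with 16 h of light and 8 h of dark. PRP31 and STA1 are proteins of the spliceosome and ZOP1 is a zinc-finger protein linked to pre-mRNA splicing, so the comparison asks how these factor genes stand in seedlings with a splicing factor mutated.

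WRKY proteins are a plant family of transcription factors that bind the W box, a short DNA element, through a conserved domain with a zinc finger. Many of their own genes carry W boxes and are switched on within minutes to hours of a microbial signal, wounding or salicylic acid, the hormone of defence against biotrophic pathogens, so that the family forms a network of activators and repressors that act on one another. Pattern receptors at the cell surface signal through MAP kinases to some of these factors, and others act with the salicylic acid receptors and in leaf senescence.

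The promoters of 4 of these genes are shown because the differences between libraries were largest in them, and because the pairs WRKY33 with WRKY40 and WRKY54 with WRKY70 had like patterns. Each run is the 300 bases before the annotated gene start, read 5′ to 3′ on the gene's strand from the Columbia reference genome TAIR10.1 (RefSeq), not from C24. Capitals mark W boxes, searched as TTGACC or TTGACT on both strands, and the element TGACG, also on both strands and known as a binding element of TGA factors of the salicylic acid pathway. All matches shown are read from the opposite strand, so they appear as the reverse complement. The second motif was chosen after the values had been seen.
WRKY33: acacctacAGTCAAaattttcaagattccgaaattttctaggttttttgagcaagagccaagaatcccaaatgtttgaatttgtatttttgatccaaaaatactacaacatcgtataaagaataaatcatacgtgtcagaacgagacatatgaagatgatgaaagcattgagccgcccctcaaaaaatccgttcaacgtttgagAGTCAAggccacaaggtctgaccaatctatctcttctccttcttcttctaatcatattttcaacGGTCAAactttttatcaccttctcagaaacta
WRKY40: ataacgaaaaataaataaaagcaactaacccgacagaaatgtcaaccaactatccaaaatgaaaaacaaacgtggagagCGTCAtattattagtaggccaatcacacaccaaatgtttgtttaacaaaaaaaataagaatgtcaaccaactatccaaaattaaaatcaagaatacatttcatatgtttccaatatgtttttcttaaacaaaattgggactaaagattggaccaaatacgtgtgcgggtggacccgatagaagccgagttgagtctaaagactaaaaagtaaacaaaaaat
WRKY54: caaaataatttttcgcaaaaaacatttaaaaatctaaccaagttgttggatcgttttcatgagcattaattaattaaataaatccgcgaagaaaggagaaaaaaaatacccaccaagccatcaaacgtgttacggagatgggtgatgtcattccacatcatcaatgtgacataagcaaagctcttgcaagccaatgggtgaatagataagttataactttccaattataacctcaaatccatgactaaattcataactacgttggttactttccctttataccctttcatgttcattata
WRKY70: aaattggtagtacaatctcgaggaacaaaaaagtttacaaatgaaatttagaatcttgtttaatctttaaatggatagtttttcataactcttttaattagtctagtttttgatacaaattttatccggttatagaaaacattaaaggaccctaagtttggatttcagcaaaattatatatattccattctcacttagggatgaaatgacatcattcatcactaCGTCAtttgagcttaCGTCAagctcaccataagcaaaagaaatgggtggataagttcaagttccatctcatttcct

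These windows lie on chromosome 2 at chr2:16107935-16108234 (plus strand) for WRKY33, on chromosome 1 at chr1:30383261-30383560 (plus strand) for WRKY40, on chromosome 2 at chr2:17002529-17002828 (minus strand) for WRKY54 and on chromosome 3 at chr3:20910624-20910923 (minus strand) for WRKY70. WRKY33 held 3 W boxes, which start 292, 96 and 32 bases before the gene start. WRKY40, WRKY54 and WRKY70 held none within 300 bases. Of the 10 genes, WRKY53 held 2 W boxes and WRKY11 held 1, so 3 of 10 had at least 1 (30%), against 32.3% of 26693 protein-coding loci and 27 of the 62 other WRKY genes (43.5%). Within 1000 bases 9 of 10 had a W box, all but WRKY70, against 67.3% of the protein-coding loci and 77.4% of the other WRKY genes. At least 2 were held by 7 of 10, against 33.2% of the protein-coding loci and 50% of the other WRKY genes. TGACG was present at 2 places in WRKY70 and at 1 place each in WRKY40 and WRKY6, while 21.3% of protein-coding loci had it at least once and 4.02% at least at 2 places. These matches describe letters in a window and were not tied to the levels below.

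Levels are FPKM, counted fragments scaled by transcript length and by the number of mapped fragments, as the authors deposited them. Averaged across the libraries, all 10 genes reached 1 FPKM, the limit used for counting, as did 19240 of the 34133 loci, called the tested loci here. The implied depth, to 3 digits, was 54600000 reads in prp31, 40700000 reads in zop1, 44300000 reads in sta1 and 49200000 reads in the wild type. The transcript of PRP31 had 16.4 FPKM in its own mutant, against 23.2 FPKM in the wild type, and that of ZOP1 had 7.99 FPKM in zop1, against 14.1 FPKM in the wild type. STA1 had 18.9 FPKM in sta1, against 14.1 FPKM in the wild type, and since the labels do not give the lesions these levels do not check the genotypes. Marker genes were looked up: 8 of 8 root markers and 4 of 5 green shoot markers were among the tested loci. So were 3 of 4 seed markers, which makes this a weak check of the seedling label. RBCS1A, a Rubisco small subunit gene, was listed at 0 in every library, while the shoot marker RCA was at 6710 FPKM in the wild type. The reason was not tested, so a listed 0 cannot be taken as absence of a transcript. With 1 library per genotype no difference has a replicate check and no p-value is given. Intervals in parentheses are exact 95% intervals that cover the counting of reads only (for WRKY11, WRKY18, WRKY33 and WRKY70 from estimated read numbers), so they say nothing of differences between plants or preparations. Also, in whole seedlings, fewer cells of a type and less RNA per cell cannot be told apart.

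In the wild type library the 10 genes spanned 1.69 to 50.9 FPKM. WRKY70, WRKY33 and WRKY11 were the most abundant, at 50.9, 44.4 and 40.6 FPKM. WRKY6 and WRKY60 followed at 11.9 and 10.8 FPKM, with counting intervals that overlapped. WRKY53, WRKY18 and WRKY40 lay close together at 6.19, 4.996 and 4.84 FPKM, with overlapping intervals between neighbours, then came WRKY46 at 3.61 FPKM and WRKY54 at 1.69 FPKM. The order differed in the mutants: WRKY40 was the lowest of the 10 in zop1 and WRKY54 in prp31, sta1 and the wild type, and WRKY11 was the highest in sta1, where WRKY70 came after it. Summed over the 10 genes the level was 175 FPKM in prp31, 224 FPKM in zop1 and 117 FPKM in sta1, against 180 FPKM in the wild type. Without WRKY70 the sums were 114, 96.1 and 91.4 FPKM in prp31, zop1 and sta1, against 129 FPKM in the wild type. The excess of zop1 in the sum was thus in WRKY70.

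**Figure D1:**
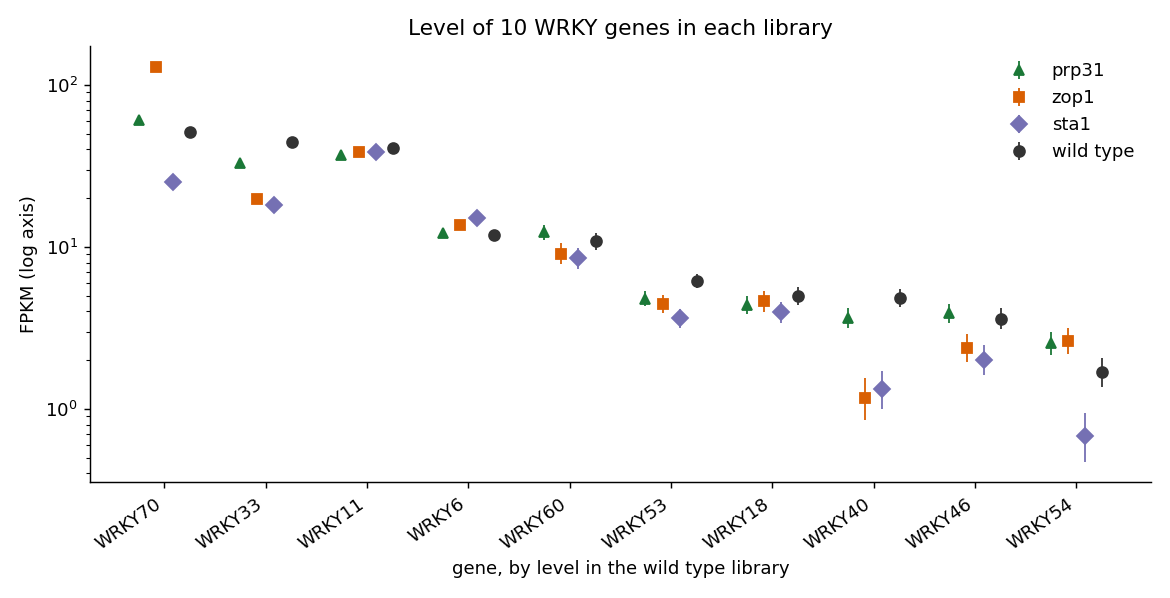
Level of each of the 10 WRKY genes in FPKM (log axis) in the prp31, zop1, sta1 and wild type libraries, 1 point per library, ordered by the level in the wild type. Bars are 95% counting intervals and do not cover differences between plants. WRKY70 lies apart in zop1 (128 FPKM) and in sta1 (25.1 FPKM), WRKY33 and WRKY40 are lower in zop1 and sta1, and the WRKY11 points lie together between 36.8 and 40.6 FPKM.

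A gene was counted as higher or lower when log2(FPKM + 1) differed by at least 1 between a pair of libraries, called the 2-fold rule here. The added 1 makes the rule stricter for low genes, so ratios of FPKM are printed beside it. In prp31 against the wild type none of the 10 genes met the rule in either direction, where 0.515% of all tested loci were higher and 0.426% lower. Compared with the wild type, zop1 had 1 gene that was higher (WRKY70; 0.956% of all loci) and 2 that were lower (WRKY33 and WRKY40; 1.28% of all loci). In sta1 against the wild type none was higher (0.79% of all loci) and 2 were lower (WRKY33 and WRKY40; 1.19% of all loci), and WRKY70 lay just short of the rule with a difference of -0.99. With 0.5 added in place of 1, WRKY70 met it at -1.01 and 3 genes were lower. The share of all loci was not computed for that setting. At 1.5-fold 6 of the 10 genes were lower in sta1, where 4.05% of all loci were. The 10 genes had a median difference of -0.05 (prp31), -0.16 (zop1) and -0.63 (sta1), beside -0.02, -0.02 and -0.06 over all tested loci. These comparisons share the wild type library, so a deviation of that library would appear in all of them. The 10 genes were chosen with earlier results of these data known. Their counts and medians beside those of all loci are therefore descriptions.

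WRKY40, WRKY18 and WRKY60 encode closely related factors that can bind one another and are known to act as partly redundant regulators, largely repressors, of immune and abscisic acid responses. WRKY40 (AT1G80840, chromosome 1, 30383561 to 30385499, 4 exons) was at 3.64 FPKM in prp31, 1.17 FPKM in zop1 and 1.32 FPKM in sta1, against 4.84 FPKM in the wild type. It was 4.15-fold lower than the wild type in zop1 (3.02 to 5.80) and 3.66-fold lower in sta1 (2.74 to 4.97). No other of the 10 genes lay so far below the wild type in either mutant, and 0.489% and 0.608% of all tested loci were as far below the wild type in zop1 and sta1. In prp31 WRKY40 was 1.33-fold lower (1.09 to 1.61), between the wild type and the other mutants. The values rest on 197, 47 and 58 reads in prp31, zop1 and sta1, and 236 in the wild type. WRKY40 shares 51 bases with AT1G80850 on the opposite strand. AT1G80850 was at 10.07, 9.25 and 12.9 FPKM in prp31, zop1 and sta1, against 9.61 FPKM in the wild type, and its part in the WRKY40 values was not tested. Of 1205 stretches of 31 bases in the exons of WRKY40, 88 also occur elsewhere in the nuclear genome, the highest number of the 10 genes.

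Its relatives differed less. WRKY18 (AT4G31800) was at 4.38 FPKM in prp31, 4.62 FPKM in zop1 and 3.94 FPKM in sta1, against 4.996 FPKM in the wild type. The counting interval held an equal level in prp31 and zop1 but not in sta1, where WRKY18 was 1.27-fold lower (1.04 to 1.55). WRKY60 (AT2G25000) was at 12.3 FPKM in prp31, 9.10 FPKM in zop1 and 8.48 FPKM in sta1, against 10.8 FPKM in the wild type, or 1.28-fold lower in sta1 (1.06 to 1.55). Within this trio the spread over the libraries, the highest level over the lowest, was 4.15-fold for WRKY40, 1.45-fold for WRKY60 and 1.27-fold for WRKY18.

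WRKY33 is the factor through which MAP kinases MPK3 and MPK6 are known to switch on camalexin synthesis and defence against necrotrophic fungi. WRKY33 (AT2G38470, chromosome 2, 16108235 to 16110766, 5 exons), whose promoter with 3 W boxes is printed above, was at 33.0 FPKM in prp31, 19.7 FPKM in zop1 and 18.1 FPKM in sta1, against 44.4 FPKM in the wild type. All mutant libraries were below the wild type, zop1 and sta1 furthest. The level was 2.26-fold lower in zop1 (2.13 to 2.40), 2.45-fold lower in sta1 (2.31 to 2.61) and 1.35-fold lower in prp31 (1.29 to 1.41). It was the second most abundant of the 10 genes in the wild type library and the third in the mutant libraries. On the opposite strand its locus overlaps AT2G08965 (272 bases, not analysed here) and AT2G38480 (26 bases), which was at 10.2, 11.9 and 10.6 FPKM in prp31, zop1 and sta1, against 9.31 FPKM in the wild type.

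WRKY70, WRKY54, WRKY53 and WRKY46 encode related factors that are induced by salicylic acid. WRKY70 acts in salicylic acid signalling and, with WRKY54, holds back leaf senescence and salicylic acid synthesis. WRKY70 (AT3G56400, chromosome 3, 20908711 to 20910623, 3 exons) was at 60.9 FPKM in prp31, 128 FPKM in zop1 and 25.1 FPKM in sta1, against 50.9 FPKM in the wild type. It was 2.51-fold above the wild type in zop1 (2.41 to 2.62), 1.20-fold above it in prp31 (1.14 to 1.25) and 2.03-fold below it in sta1 (1.91 to 2.16). No other of the 10 genes had so wide a range, 5.10-fold between zop1 and sta1. In zop1 0.489% of all tested loci were as far above the wild type, and in sta1 1.21% were as far below it. No annotated gene overlaps WRKY70.

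WRKY54 (AT2G40750, chromosome 2, 17000419 to 17002528, 3 exons) had the same order of libraries at a lower level, though its zop1 and prp31 levels were not apart beyond counting error. It was at 2.54 FPKM in prp31, 2.63 FPKM in zop1 and 0.677 FPKM in sta1, against 1.69 FPKM in the wild type. The ratio to the wild type was 1.51 in prp31 (1.16 to 1.97), 1.56 in zop1 (1.18 to 2.06) and 0.402 in sta1 (0.263 to 0.600). Its sta1 value, the lowest of all 40 values here, rests on 34 reads, against 94 in the wild type. WRKY54 did not meet the 2-fold rule against the wild type in any mutant.

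WRKY46 and WRKY53, activators of salicylic acid responses of which WRKY53 also promotes senescence, did not meet the 2-fold rule against the wild type in any mutant. WRKY53 (AT4G23810) was at 4.80 FPKM in prp31, 4.43 FPKM in zop1 and 3.62 FPKM in sta1, against 6.19 FPKM in the wild type. It was 1.29-fold lower in prp31 (1.11 to 1.49), 1.40-fold lower in zop1 (1.19 to 1.65) and 1.71-fold lower in sta1 (1.44 to 2.03), with 210 reads in the lowest library. WRKY46 (AT2G46400) was at 3.91 FPKM in prp31, 2.39 FPKM in zop1 and 2.02 FPKM in sta1, against 3.61 FPKM in the wild type. The prp31 library was therefore not below the wild type for WRKY46, while zop1 was 1.51-fold (1.18 to 1.95) and sta1 1.79-fold (1.38 to 2.33) lower. WRKY53 overlaps AT4G23800, an HMG-box gene on the opposite strand, by 341 bases. AT4G23800 was at 23.3, 34.3 and 27.1 FPKM in prp31, zop1 and sta1, against 26.6 FPKM in the wild type, and its part in the WRKY53 values was not tested.

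WRKY6 and WRKY11 did not meet the rule in any mutant either. WRKY6 (AT1G62300), a senescence factor that also represses the phosphate exporter gene PHO1, was at 12.2 FPKM in prp31, 13.6 FPKM in zop1 and 15.0 FPKM in sta1, against 11.9 FPKM in the wild type. It was above the wild type in sta1 by 1.26-fold (1.16 to 1.37) and in zop1 by 1.14-fold (1.05 to 1.25). WRKY6 was the single gene of the 10 above the wild type in sta1, where 7664 of the 19240 tested loci were. PHO1 was at 48.1 FPKM in prp31, 44.6 FPKM in zop1 and 41.3 FPKM in sta1, against 45.7 FPKM in the wild type. WRKY11 (AT4G31550), a negative regulator of basal resistance, was at 36.8 FPKM in prp31, 38.5 FPKM in zop1 and 38.2 FPKM in sta1, against 40.6 FPKM in the wild type. Its highest level was 1.10-fold its lowest.

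**Figure D2:**
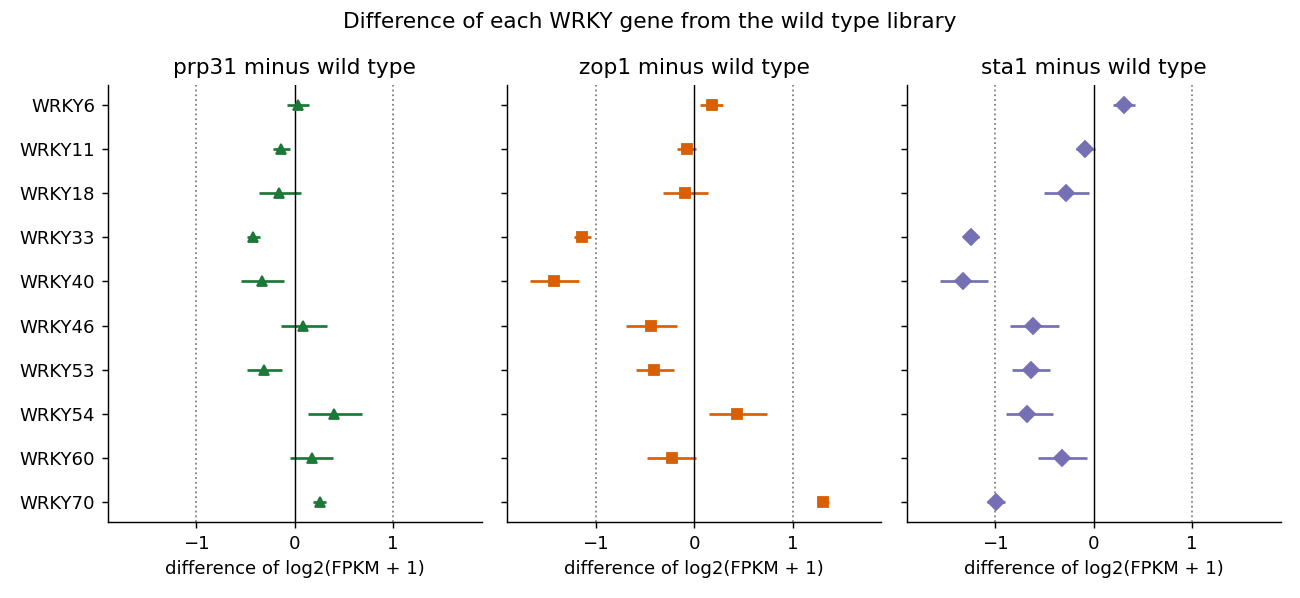
Difference of log2(FPKM + 1) from the wild type library for each of the 10 WRKY genes, in prp31 (left), zop1 (middle) and sta1 (right). Points are single libraries, bars are 95% counting intervals and dotted lines mark the 2-fold rule. WRKY33 and WRKY40 lie beyond -1 in zop1 and sta1, and WRKY70 lies at 1.31 in zop1 and at -0.99 in sta1.

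The mutant libraries were also compared directly, without the wild type. Between zop1 and sta1 2 of the 10 genes were higher in zop1 (0.722% of all loci) and none lower (0.634% of all loci). These were WRKY70 and WRKY54, which lay on opposite sides of the wild type in zop1 and sta1. WRKY70 was at 128 FPKM in zop1 against 25.1 FPKM in sta1, 5.10-fold higher (4.81 to 5.40), and 36 of the 19240 tested loci (0.187%) were as far above sta1. WRKY54 was at 2.63 FPKM in zop1 against 0.677 FPKM in sta1, 3.88-fold higher (2.63 to 5.85). WRKY33 and WRKY40 were close in these libraries, with ratios of zop1 to sta1 of 1.09 (1.01 to 1.17) and 0.883 (0.588 to 1.32). The remaining 6 genes had ratios between 0.906 (WRKY6) and 1.22 (WRKY53). Of the 43 other WRKY genes tested none met the rule in this comparison, and their differences ran from -0.25 to 0.59.

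Against zop1, prp31 had 1 gene higher (WRKY40; 1.11% of all loci) and 1 lower (WRKY70; 0.873% of all loci). WRKY40 was 3.12-fold higher in prp31 than in zop1 (2.26 to 4.39) and WRKY33 1.68-fold higher (1.58 to 1.79), while the ratio was 0.476 for WRKY70 (0.458 to 0.495). Against sta1, prp31 had 3 genes higher (1.02% of all loci) and none lower (0.65% of all loci). They were WRKY54, 3.75-fold higher (2.58 to 5.61), WRKY40, 2.76-fold higher (2.05 to 3.77), and WRKY70, 2.43-fold higher (2.28 to 2.58). WRKY40 met the rule there narrowly, with a difference of 1.0009, and missed it at 0.98 under median-of-ratios scaling of the libraries, which left 2 genes higher. At 1.5-fold prp31 had 2 genes higher than zop1 (3.7% of all loci) and 5 higher than sta1 (3.19%). The prp31 library thus lay on the wild type side of zop1 and sta1 for WRKY33 and WRKY40.

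**Figure D3:**
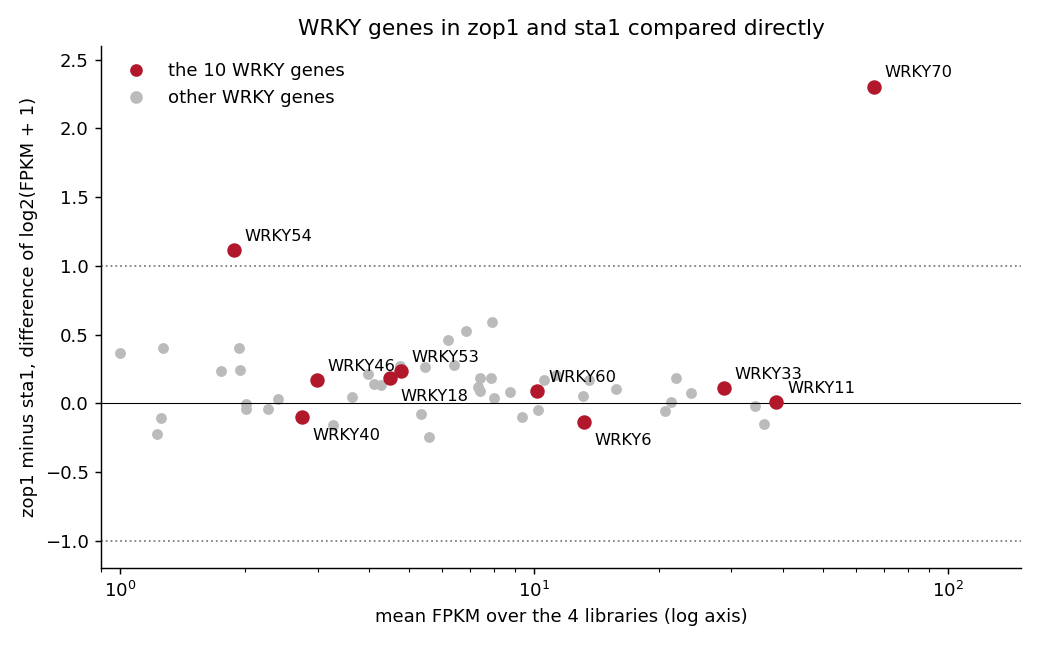
Difference of log2(FPKM + 1) between the zop1 and sta1 libraries, zop1 minus sta1, against the mean FPKM over the 4 libraries (log axis), for the 10 WRKY genes (red) and the 43 other tested WRKY genes (grey). Dotted lines mark the 2-fold rule. WRKY70 at 2.30 and WRKY54 at 1.11 lie above the upper line, and the other points lie between -0.25 and 0.59.

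Across the rest of the WRKY family none of the 43 other genes tested met the 2-fold rule against the wild type in any mutant. Their medians were -0.01 (prp31), -0.0018 (zop1) and -0.14 (sta1). The largest difference was that of WRKY51, a gene of salicylic acid and jasmonate crosstalk, at 3.53 FPKM in prp31, 1.77 FPKM in zop1 and 1.85 FPKM in sta1, against 1.95 FPKM in the wild type. Another 19 WRKY genes were below a mean of 1 FPKM and were not counted, and 1 of these was listed at 0 in every library.

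Genes that act with these factors were taken from lists made with earlier results of these data known, so their direction is a description. Of 12 tested genes for pattern receptors and MAP kinases, MKK9 alone met the rule. MKK9, a kinase above MPK3 and MPK6, was at 10.8 FPKM in prp31, 5.63 FPKM in zop1 and 6.23 FPKM in sta1, against 15.7 FPKM in the wild type, with ratios to the wild type of 0.359 in zop1 and 0.397 in sta1. The receptor gene FLS2, of lower level, had a like ratio in sta1, 0.400, but missed the rule at -0.87. FLS2 was at 2.66 FPKM in prp31, 2.17 FPKM in zop1 and 1.22 FPKM in sta1, against 3.04 FPKM in the wild type. The list had medians of -0.03 (prp31), -0.22 (zop1) and -0.21 (sta1). MPK3 itself was at 63.3 FPKM in prp31, 39.98 FPKM in zop1 and 37.3 FPKM in sta1, against 63.8 FPKM in the wild type.

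VQ proteins bind WRKY factors and alter their activity. Of the 4 VQ genes 1 was lower by the rule in zop1 and none was lower in prp31 or sta1. SIB1, whose protein binds WRKY33, was at 11.4 FPKM in prp31, 2.85 FPKM in zop1 and 3.39 FPKM in sta1, against 7.20 FPKM in the wild type. It was 2.53-fold lower in zop1 and 2.12-fold lower in sta1. MKS1, which links WRKY33 to MAP kinase MPK4, was at 4.51 FPKM in prp31, 2.75 FPKM in zop1 and 2.79 FPKM in sta1, against 5.05 FPKM in the wild type. The remaining VQ genes differed less in zop1 and sta1. SIB2 was at 38.0 FPKM in prp31, 28.3 FPKM in zop1 and 32.2 FPKM in sta1, against 28.8 FPKM in the wild type. JAV1 was at 8.44 FPKM in prp31, 6.19 FPKM in zop1 and 5.83 FPKM in sta1, against 7.62 FPKM in the wild type.

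None of the 13 regulators of salicylic acid synthesis and signalling met the rule in any mutant. Their medians were 0.21 (prp31), -0.09 (zop1) and -0.27 (sta1), and 11, 6 and 1 of the 13 lay above the wild type in these libraries. Of the 19240 tested loci 8436, 8974 and 7664 did. PAD4, a partner of EDS1 in immune signalling, had the largest difference of log2(FPKM + 1), at 21.2 FPKM in prp31, 10.6 FPKM in zop1 and 10.7 FPKM in sta1, against 20.5 FPKM in the wild type. Some genes of lower level had larger ratios of FPKM. NIMIN1, whose protein binds the salicylic acid receptor NPR1, was at 2.07 FPKM in prp31, 1.02 FPKM in zop1 and 0.268 FPKM in sta1, against 0.965 FPKM in the wild type, which is 2.14-fold higher in prp31 and 3.60-fold lower in sta1. PBS3, an enzyme of salicylic acid synthesis, was at 5.22 FPKM in prp31, 1.78 FPKM in zop1 and 1.91 FPKM in sta1, against 4.001 FPKM in the wild type, 2.25-fold lower in zop1. SARD1, a transcription factor that switches on salicylic acid synthesis, was at 2.89 FPKM in prp31, 2.96 FPKM in zop1 and 1.11 FPKM in sta1, against 2.20 FPKM in the wild type. The lowest library of SARD1 and of NIMIN1 was sta1, as for WRKY70 and WRKY54, but also for NPR1, NPR3, NPR4, SAG101 and EDS5. For EDS1, PAD4, PBS3, CBP60g and NIMIN2 it was zop1, and for ICS1 the wild type.

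Of 16 genes known as targets or outputs of these factors, 10 were among the tested loci. By the rule 1 was lower in prp31, 2 were lower in zop1, and 2 were higher and 3 lower in sta1. ACS6, an ethylene synthesis gene downstream of MPK3 and MPK6, was at 16.95 FPKM in prp31, 7.46 FPKM in zop1 and 8.36 FPKM in sta1, against 24.8 FPKM in the wild type. That is the order of libraries seen for WRKY40, though the WRKY40 levels in zop1 and sta1 were not apart beyond counting error. ACS6 was 3.33-fold lower than the wild type in zop1 and 2.97-fold lower in sta1.

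The camalexin genes, targets of WRKY33, did not have its pattern over all libraries. CYP71A13 was at 3.23 FPKM in prp31, 3.37 FPKM in zop1 and 9.04 FPKM in sta1, against 2.23 FPKM in the wild type, 4.05-fold higher in sta1. PAD3, the last enzyme of the pathway, was at 2.72 FPKM in prp31, 0.963 FPKM in zop1 and 5.42 FPKM in sta1, against 2.86 FPKM in the wild type. In zop1 PAD3 was 2.97-fold lower than the wild type, the direction of WRKY33, and just missed the rule at -0.98. CYP71A13 was above the wild type there. The sta1 library held the highest levels of both. It also held the lowest level of WRKY33, but narrowly, with a ratio of zop1 to sta1 of 1.09 (1.01 to 1.17). A link between these levels was not tested.

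The pathogenesis-related genes PR1 and PR2 are outputs of salicylic acid signalling. PR1 was at 34.3 FPKM in prp31, 56.9 FPKM in zop1 and 16.4 FPKM in sta1, against 125 FPKM in the wild type, and PR2 at 14.5, 11.8 and 4.34 FPKM in prp31, zop1 and sta1, against 16.9 FPKM in the wild type. Between zop1 and sta1 PR1 was 3.47-fold and PR2 2.72-fold higher in zop1, the direction of WRKY70. PR5, also among the targets, did not have that direction, with a ratio of zop1 to sta1 of 0.926. It was at 11.1, 9.63 and 10.4 FPKM in prp31, zop1 and sta1, against 12.8 FPKM in the wild type. Against the wild type, PR1 was lower in zop1 where WRKY70 was higher. UPOX, a mitochondrial stress gene that WRKY40 is known to repress, was at 4.64 FPKM in prp31, 5.41 FPKM in zop1 and 8.84 FPKM in sta1, against 2.75 FPKM in the wild type, 3.21-fold higher in sta1.

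Fast stress genes were low in the same libraries as WRKY33 and WRKY40. These genes respond to touch, wounding or cutting within minutes. Of the 11 genes 2 were lower by the rule in prp31 (0.426% of all loci), 8 in zop1 (1.28%) and 8 in sta1 (1.19%). None was higher (0.515%, 0.956% and 0.79% of all loci in prp31, zop1 and sta1). This list too was made with earlier results of these data known, so its counts and medians are descriptions. The median differences were -0.65 (prp31), -1.89 (zop1) and -1.71 (sta1). ZAT10, a zinc-finger repressor, was at 19.2 FPKM in prp31, 3.51 FPKM in zop1 and 5.76 FPKM in sta1, against 33.9 FPKM in the wild type. ERF6, an ethylene response factor activated by MPK3 and MPK6, was at 5.06 FPKM in prp31, 1.58 FPKM in zop1 and 1.64 FPKM in sta1, against 8.15 FPKM in the wild type. ZAT12, ERF104, ERF5, CAF1a, DIC2 and ORA47 also met the rule in zop1 and in sta1. In all 11 genes zop1 and sta1 lay below prp31. TCH3, TCH4 and CAF1b did not meet the rule in any mutant, and TCH3, a calmodulin-like touch gene, was at 48.2 FPKM in prp31, above the 46.5 FPKM of the wild type. What part the state shown by these genes had in the WRKY values was not tested.

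**Figure D4:**
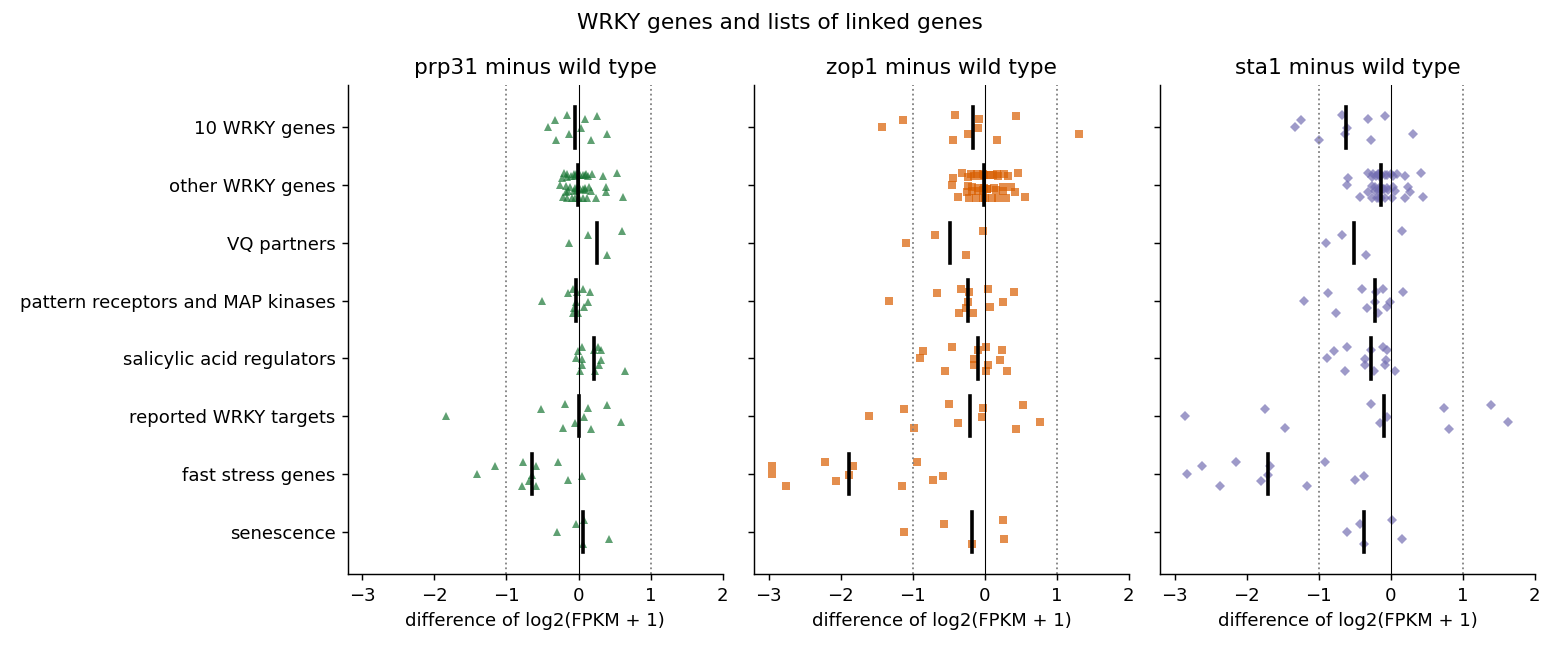
Difference of log2(FPKM + 1) from the wild type library in prp31 (left), zop1 (middle) and sta1 (right) for the 10 WRKY genes, the other WRKY genes and the lists of linked genes, 1 point per tested gene. Black bars are medians and dotted lines mark the 2-fold rule. The 10 WRKY genes and the lists of linked genes were chosen with earlier results of these data known. The fast stress genes have medians of -0.65, -1.89 and -1.71, and the other WRKY genes lie within the dotted lines.

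Of 5 tested senescence genes 1 was lower by the rule, in zop1. SEN1, a dark-induced gene, was at 20.4 FPKM in prp31, 11.03 FPKM in zop1 and 16.3 FPKM in sta1, against 25.3 FPKM in the wild type. The senescence marker SAG12 was listed at 0 in every library. Among markers of organs, no root or green shoot marker met the rule: root medians were -0.04, 0.08 and -0.07 in prp31, zop1 and sta1, and green shoot medians 0.06, -0.18 and 0.11. EXPA7, a root hair expansin, had the largest root difference, at 6.73 FPKM in zop1 against 4.71 FPKM in the wild type. LHCB2.1, a light-harvesting gene, had the largest shoot difference, at 1969 FPKM in zop1 against 2284 FPKM in the wild type. In zop1 against sta1 the root median was 0.30, with 7 of 8 markers higher in zop1. The green shoot median was -0.25, with 4 of 4 lower, beside a median of 0.04 over all tested loci. None of these markers met the rule there, and their part in the WRKY differences was not tested. Of 3 tested seed genes 1 was lower by the rule in prp31 (CRA1), 2 in zop1 and 2 in sta1 (CRA1 and CRC). CRA1, a storage protein gene, was at 1.63 FPKM in prp31, 0.643 FPKM in zop1 and 1.47 FPKM in sta1, against 6.14 FPKM in the wild type. CRC, another storage protein gene, was at 3.02 FPKM in prp31, 0.09 FPKM in zop1 and 0.229 FPKM in sta1, against 5.37 FPKM in the wild type. OLEO1, an oil body protein gene, did not meet the rule and lay on the other side in sta1, at 1.28 FPKM in prp31, 0.349 FPKM in zop1 and 2.88 FPKM in sta1, against 1.64 FPKM in the wild type. The part of left-over seed material in the differences of the WRKY genes was not tested.

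Genes with the pattern most like that of WRKY40 were sought among 10035 protein-coding loci that averaged 10 FPKM or more. Likeness was the Euclidean distance between log2(FPKM + 1) values, each less its own mean over the 4 libraries. The nearest were AT1G22190 (distance 0.112), ACS6 (0.154), AMT1;3 (0.181), PLA2-ALPHA (0.188) and ATCTH (0.191). The added 1 shrinks the differences of WRKY40, a low gene, more than theirs, so near loci can differ less by ratio. In zop1 WRKY40 was 4.15-fold and ACS6 3.33-fold below the wild type. Genes that averaged under 10 FPKM, among them ERF5 and ERF6, were not compared. AT1G22190 was at 56.3 FPKM in prp31, 26.9 FPKM in zop1 and 30.9 FPKM in sta1, against 73.7 FPKM in the wild type. For WRKY70 the nearest locus, AT1G67310, was at a distance of 0.832, further than any of the 5 named for WRKY40. WRKY54 averaged under 10 FPKM and was not compared. AT1G67310 was at 10.6 FPKM in prp31, 30.4 FPKM in zop1 and 9.71 FPKM in sta1, against 11.2 FPKM in the wild type, high in zop1 but not low in sta1. The next were AT5G23490 (0.859), AT1G65541 (0.866), AT5G46890 (0.940) and bHLH071 (0.944). With 4 libraries such distances are descriptions.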

How the data were processed

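RNA was sequenced from 1 library each of prp31, zop1, sta1 and wild type C24 seedlings, grouped by the genotype labels. The authors deposited FPKM (fragments scaled by transcript length and mapped fragments) for 34133 loci. The TAIR10 build, TopHat2 2.0.12, Bowtie, Cufflinks 2.0.1 and also Cuffdiff are named per the submitters' processing notes, with no roles. Settings, annotation and strandedness: not given in the sources used here, so reads from overlapping genes on opposite strands cannot be told apart.

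Values were compared as log2(FPKM + 1) between single libraries, over loci that averaged 1 FPKM or more, and a difference of at least 1 was counted. No test across replicates was possible. The worth of 1 read in each library was read from the steps of low FPKM values (tested on simulated data). Single-transcript loci of TAIR10.1 (effective length taken as 204 nt under the annotated one) then gave the depth, matched at 830 of 3599 loci. Whole reads were recovered for WRKY6, WRKY40, WRKY46, WRKY53, WRKY54 and WRKY60 and are lower bounds. For WRKY11, WRKY18, WRKY33 and WRKY70 reads were estimated from depth and the shortest annotated transcript. Intervals are exact binomial (ratios) or Poisson (levels), at 95%, and cover counting error only.

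Names, positions, exons and promoters came from TAIR10.1 (RefSeq), in which all 10 genes were found. The members and lists were chosen with earlier results of these data known. Named genes are all members, the mutated genes, list genes that met the 2-fold rule or else had the largest difference, and the 5 loci nearest to WRKY40 and to WRKY70. Other genes (MPK3, FLS2, MKS1, SARD1, PAD3, PHO1, PR5, AOX1A, NIMIN1, PBS3, further salicylic acid regulators, TCH3, TCH4, CAF1b, OLEO1, neighbours) were named after their values were seen. SIB2, JAV1 and RCA were also named after their values were seen. Alternatives were other pseudocounts, filters, scaling and fold. Python 3.11.15, numpy 2.4.6, pandas 2.3.3, scipy 1.17.1 and matplotlib 3.10.9 were used.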

Additional observations from a re-analysis of the deposited data

Results flagged for a closer look

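WRKY70 and WRKY54 lay on opposite sides of the wild type in different mutants, with counting intervals that left out an equal level on each side. For WRKY70 the difference of log2(FPKM + 1) from the wild type was 1.31 in zop1 and 0.25 in prp31, but -0.99 in sta1. For WRKY54 it was 0.43 in zop1 and 0.40 in prp31, but -0.68 in sta1. With 1 library per genotype the difference between mutants was not tested across replicates.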

How the results depend on the processing

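Under median-of-ratios scaling, a pseudocount of 0.5 and no filter, the 12 counts of genes past the rule (6 comparisons, each direction) were the same but for 2. Under the scaling 2 genes in place of 3 were higher in prp31 against sta1, with WRKY40 lost at 0.98, and with the pseudocount of 0.5 3 genes in place of 2 were lower in sta1 against the wild type, with WRKY70 added at -1.01. With a pseudocount of 0.1 4 genes were lower there, with WRKY70 and WRKY54 added, and the other 11 counts were the same. Shares of all loci were not computed under the other pseudocounts, scaling or filters. A rise or fall of these counts therefore has no background beside it. With a mean of at least 5 FPKM 5 of the 10 genes were left, and WRKY40 and WRKY54 were no longer counted. The counts then were 1 lower in zop1 and 1 lower in sta1 against the wild type, 1 higher in zop1 against sta1, 1 higher in prp31 against sta1 and 0 higher in prp31 against zop1, and the sta1 median was -0.32. With a 1.5-fold rule 6 genes were lower in sta1 against the wild type (4.05% of all loci), 5 were higher in prp31 against sta1 (3.19%) and 2 were higher in prp31 against zop1 (3.7%). With protein-coding loci as background, chosen after seeing the data, 0.327% of loci were higher and 0.274% lower in prp31 against the wild type. Single-gene differences kept their sign wherever they met the rule. No paired analysis was possible because each genotype has 1 library. Depth limits the lowest value most, which rests on 34 reads, and the spread between plants could not be measured.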

Other observations

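Of the genes beside WRKY70 and WRKY54, AT3G56410 alone was above 1 FPKM, and it did not have the pattern of WRKY70. AT3G56410, 5548 bases from WRKY70 on the same strand, was at 7.29 FPKM in prp31, 5.17 FPKM in zop1 and 5.63 FPKM in sta1, against 7.06 FPKM in the wild type. On the other side AT3G56390 was at 0.130 FPKM in prp31 and listed at 0 in the other libraries. WRKY55, whose gene ends 919 bases from WRKY54 on the opposite strand, was at 0.108 FPKM in prp31, 0.109 FPKM in zop1 and 0.206 FPKM in sta1, against 0.270 FPKM in the wild type. AT2G40745, on the other side of WRKY54, was listed at 0 in every library. At such levels the neighbours of WRKY54 could not show whether they had its pattern. AOX1A, the alternative oxidase gene of mitochondria, was at 25.8 FPKM in prp31, 33.5 FPKM in zop1 and 40.6 FPKM in sta1, against 22.8 FPKM in the wild type, the same order of libraries as UPOX.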
